A study of Mus musculus with 8 samples.

Results

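Transcripts of 10 genes that mark the ovarian surface epithelium were followed in RNA recovered with the decapping co-activator DCP1A and in input RNA of the mouse ovary. The genes were chosen by name as markers of this layer, with no threshold on the counts: the keratins Krt7, Krt8, Krt18 and Krt19, the adhesion gene Cdh1, the membrane protein genes Upk3b, Gpm6a and Lgr5, and the transcription factor genes Wt1 and Bnc1. All 10 were found among the 23107 genes of the deposited table, all had counts in every library, and all 10 passed the filter on low counts. Between RIP and input, 0 of the 10 passed edgeR's quasi-likelihood test at an adjusted p under 0.05, a test that called 0.0409% of the 14667 genes tested. The keratin gene Krt8 lay nearest to a difference, with 40.5 ± 10.01 CPM in input against 64.5 ± 12.9 CPM in RIP (SD, n = 4 each).

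Cortex of the ovary was taken whole from mice at postnatal day 8 and measured in 4 input and 4 RIP libraries. RIP, RNA immunoprecipitation, recovers a protein with an antibody together with the RNA bound to it, and here the antibody was against DCP1A and the stated aim concerned the RNAs of primary oocytes. Strain and genotype are not given in the labels, and neither is whether libraries came from separate animals or pools, so the spread behind each p-value may be a technical one. A control antibody library was not analysed here, and unspecific recovery was therefore not measured. Oocytes, follicle cells, stroma and surface cells all contributed RNA to every library, and fewer cells of a type and less RNA per cell cannot be told apart in such samples.

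The surface epithelium is a single layer of flat to cuboidal cells that covers the ovary and is continuous with the mesothelium of the body cavity. Its cells hold keratin filaments, which are built from paired type I and type II keratins, and they also keep features of mesothelium such as Wt1 and Upk3b. The layer breaks and is repaired at each ovulation, and cells expressing Lgr5 are known to contribute to it around birth. DCP1A belongs to the complex that removes the cap of mRNAs, and it collects in processing bodies, where mRNAs are stored or degraded. Several of these genes are not private to the surface layer: Wt1 is also known from granulosa cells, and Cdh1 and Bnc1 from oocytes.

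Libraries held 13098154 to 25757620 counts, with the lowest totals in inputs 1 and 2. Levels below are counts per 1000000 counts (CPM) after TMM scaling, which aligns libraries on the bulk of their genes, so a fold change is relative to the other RNAs of a library and not an absolute recovery. Counts were not divided by transcript length, because no transcript lengths were used here, and levels of different genes are therefore not ranked against each other. Over log2 CPM of all tested genes, the median correlation of a library with the rest of its group was 0.825 to 0.847 for the inputs and 0.887 to 0.945 for the RIP libraries, and RIP 1 was the lowest of the RIP group.

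The label was checked against other genes of the same epithelium. Of 22 further surface epithelium and mesothelial genes listed, 21 were analysed and 18 passed the filter. The mesothelial genes Msln, Upk1b and Lrrn4 did not pass. Msln, which encodes mesothelin, had 0, 3, 28 and 0 counts in inputs 1 to 4 and 77, 10, 0 and 21 in RIP libraries 1 to 4. Upk1b, a uroplakin gene, had 0, 75, 82 and 0 counts in the inputs and 0, 26, 2 and 0 in the RIP libraries. Lrrn4 had 0, 2, 4 and 45 counts in the inputs and 11, 47, 10 and 0 in the RIP libraries. The genes that failed the filter were thus at 0 counts in some libraries and at no more than 82 counts in any. They were low and uneven within both groups, so they do not settle whether the layer was present in every library. With the genes that passed, the whole list summed to 2322 to 2917 CPM in the inputs and 2018 to 2492 CPM in the RIP libraries. Such a sum depends on the genes chosen and does not settle it either. The epidermal keratins Krt5 and Krt14 were at 0 counts in all 8 libraries. Markers of the rete ovarii and the oviduct epithelium, other keratin-bearing epithelia near the ovary, were close to 0: the 7 genes summed to 0 to 4.48 CPM in the inputs and 0.476 to 3.09 CPM in the RIP libraries. Of these, Pax8 (log2 -1.01 ± 1.57) and Foxj1 (0.62 ± 1.68) were tested, and 0 of them passed. Ovgp1, another gene of that list, had 46 counts in input 3, where Msln had 28.

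Krt8, the type II partner of Krt18 in simple epithelia (mm10 chromosome 15, 101996711 to 102004342), was the member with the largest log2 difference. Its level was 33.8, 31.8, 53.8 and 42.7 CPM in inputs 1 to 4 and 72.6, 78.0, 56.9 and 50.6 CPM in RIP libraries 1 to 4. In RIP libraries 1, 2 and 3 it lay above all inputs, while RIP 4 lay below input 3, so the groups overlapped. The log2 fold change of RIP over input was 0.67 ± 0.27 (SE), with a 95% interval of 0.09 to 1.25. The unadjusted p was 0.0272 and the adjusted p 0.625 (edgeR's quasi-likelihood test, Benjamini-Hochberg over 14667 genes), so the difference did not pass. An unadjusted p under 0.05 with a higher level in RIP was found for 3.15% of all genes tested. Within libraries numbered 1 and 2 the log2 fold change of Krt8 was 1.20 (edgeR adjusted p = 0.342), and within those numbered 3 and 4 it was 0.16 (0.875).

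Krt18, the type I partner of Krt8, lies near it on chromosome 15 (102028216 to 102032026). Between the Krt8 and Krt18 genes lie 23873 bases, which hold the annotated lncRNA genes Gm36026 and Gm41404. Krt18 was at 0.756, 10.1, 28.4 and 10.3 CPM in inputs 1 to 4, and at 16.6, 15.7, 13.96 and 7.37 CPM in RIP libraries 1 to 4. Input 1 was far below and input 3 far above the rest, and every RIP library fell inside the range of the inputs. The group means were 12.4 ± 11.6 and 13.4 ± 4.2 CPM, with a log2 fold change of 0.11 ± 0.67 and an interval of -1.32 to 1.54. Input 1 held 9 counts of Krt18. Without input 1 the fold change was -0.28 (edgeR adjusted p = 0.867), without RIP 1 it was -0.011, and within libraries numbered 3 and 4 it was -0.86 (edgeR adjusted p = 0.610), so its sign was not stable.

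The spread of Krt18 among inputs was wide for a gene of its level. The SD of its log2 CPM was 2.15 among inputs, where the 1051 tested genes within 0.25 of its mean log2 CPM had a median SD of 0.71. Among RIP libraries its SD was 0.54, near the 0.48 of those genes. A wide spread among inputs was not particular to Krt18. Against genes of their own levels, the input SD was 1.33 against 0.79 for Lgr5 and 1.08 against 0.61 for Upk3b. It was 1.06 against 0.62 for Cdh1 and 0.92 against 0.61 for Bnc1. Krt19 was near such genes (0.57 against 0.55), while Krt7, Krt8, Gpm6a and Wt1 lay below them. Set against its partner within each library, Krt18 made up 2.19% of the Krt8 and Krt18 counts in input 1 (9 of 411, exact 95% binomial interval 1.01 to 4.12%). The share was 24.1% in input 2, 34.6% in input 3 (interval 32.7 to 36.5%) and 19.4% in input 4. In the RIP libraries it was 18.6, 16.7, 19.7 and 12.7%. The group means were 20.1 ± 13.5% for input and 16.9 ± 3.1% for RIP (SD, n = 4 each). Inputs 1 and 3 thus stood on either side of the other 6 libraries, with intervals that did not overlap theirs. The intervals treat the estimated counts as independent draws and cover counting error only, so they may be too narrow.

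**Figure D1:**
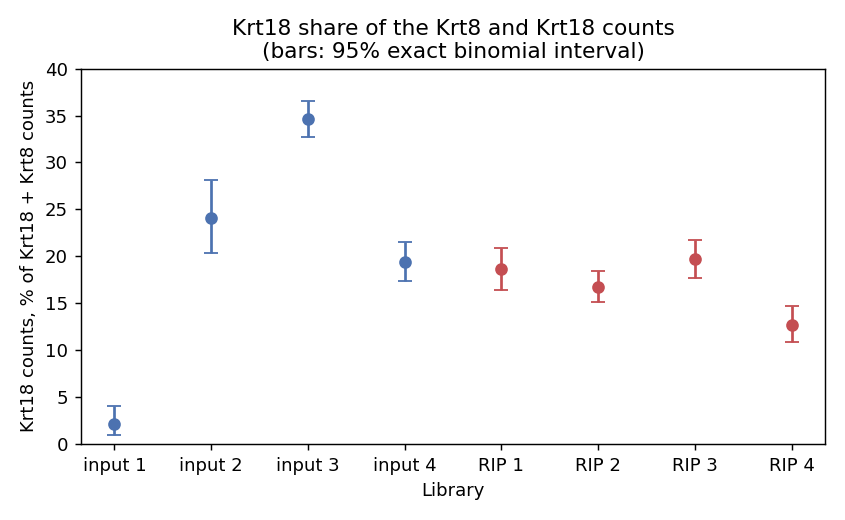
Share of Krt18 in the summed Krt8 and Krt18 counts (y axis, percent) in each of the 8 libraries (x axis; inputs blue, RIP red), with exact 95% binomial intervals as bars. Input 1 is at 2.19% and input 3 at 34.6%, while the 4 RIP libraries lie between 12.7 and 19.7%.

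Krt19, a type I keratin without a long tail domain (chromosome 11, 100140810 to 100145926), was at 28.1, 32.4, 13.05 and 21.8 CPM in inputs 1 to 4. In RIP libraries 1 to 4 it was at 65.2, 22.9, 22.3 and 10.2 CPM. RIP 1 lay above every other library and RIP 4 below every other library, so the RIP group spanned more than the inputs. It was the one member whose log2 spread was wider in RIP (SD 1.09) than in input (0.57). Its log2 fold change was 0.34 ± 0.48 (interval -0.68 to 1.35, adjusted p = 0.891). Without RIP 1 it was -0.36 (edgeR adjusted p = 1.00), which is a change of sign.

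Krt7, a type II keratin of simple ducts and mesothelium (chromosome 15, 101412403 to 101427806), was at 6.72, 11.5, 4.91 and 3.97 CPM in inputs 1 to 4 and at 5.76, 4.66, 2.81 and 6.99 CPM in RIP libraries 1 to 4. The highest value was in input 2 and the lowest in RIP 3, and the groups overlapped. Its log2 fold change was -0.42 ± 0.60, with an interval of -1.70 to 0.86. The 4 keratins summed to 83.5 ± 12.98 CPM in input and 113 ± 37 CPM in RIP, where RIP 1 was the highest at 160 CPM and RIP 4 the lowest at 75.2 CPM. The keratins did not share one order of libraries: input 3 was the highest input for Krt8 and Krt18 and the lowest for Krt19, and input 2 was the highest for Krt7 and Krt19.

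Cdh1 encodes E-cadherin, the adhesion protein of epithelial junctions (chromosome 8, 106603350 to 106670247). It was at 4.62, 15.3, 14.95 and 27.0 CPM in inputs 1 to 4 and at 9.53, 16.4, 27.5 and 29.8 CPM in RIP libraries 1 to 4. Libraries 1 were the lowest of both groups and libraries 4 the highest of both. RIP over input gave a log2 fold change of 0.42 ± 0.49, with an interval of -0.63 to 1.47 (adjusted p = 0.863).

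Upk3b encodes a uroplakin that is also a marker of mesothelial cells (chromosome 5, 136038496 to 136044993). Its level was 33.3, 5.26, 11.4 and 12.2 CPM in inputs 1 to 4 and 33.9, 18.4, 17.9 and 16.5 CPM in RIP libraries 1 to 4. Input 1 and RIP 1 were each the highest of their group and nearly equal, and input 2 was the lowest of all libraries. For Upk3b the log2 fold change was 0.48 ± 0.49 (interval -0.56 to 1.52, adjusted p = 0.845).

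Gpm6a, a tetraspan glycoprotein gene best known from neurons (chromosome 8, 54779434 to 55060878), was at 6.05, 5.94, 10.2 and 4.88 CPM in inputs 1 to 4. In RIP libraries 1 to 4 it was at 3.62, 6.05, 5.72 and 3.76 CPM. RIP 1 and RIP 4 lay below all inputs and the other two RIP libraries lay among them. Its log2 fold change of -0.50 ± 0.58 was the lowest of the members, with an interval of -1.72 to 0.72. An annotated lncRNA of 7782 bases lies inside the gene and was not analysed here, and since the use of strand in counting is not stated, its reads cannot be told apart from those of Gpm6a.

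Lgr5 encodes a receptor for R-spondins, which strengthen WNT signals (chromosome 10, 115450314 to 115587780). It was at 10.3, 15.5, 12.9 and 2.00 CPM in inputs 1 to 4 and at 14.7, 7.47, 6.56 and 10.5 CPM in RIP libraries 1 to 4. Input 4 was the lowest library, with 55 counts, and all RIP libraries lay inside the range of the inputs. Between the groups the log2 fold change was -0.05 ± 0.56, with an interval of -1.25 to 1.14. A930009A15Rik overlaps Lgr5 over 12469 bases and had 1 count in all 8 libraries together.

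Wt1 encodes a zinc finger transcription factor of the coelomic epithelium and the gonad (chromosome 2, 105126529 to 105173614). It was at 388, 322, 436 and 361 CPM in inputs 1 to 4 and at 387, 385, 335 and 396 CPM in RIP libraries 1 to 4. The libraries of both groups were interleaved, and the group means were 377 ± 48 and 376 ± 27 CPM. The log2 fold change was -0.0041 ± 0.21, and the interval of -0.45 to 0.45 corresponds to 0.730-fold to 1.36-fold. Wt1 was the only member whose interval stayed within 2-fold in both directions, and it was also the member with the most counts, 3790 to 12802 per library. The neighbouring lncRNA gene Wt1os, named as the opposite strand of Wt1, is listed as AI314831 and ends 18 bases before it. Its level was 17.2 ± 5.9 CPM in input against 21.2 ± 5.3 CPM in RIP (log2 0.29 ± 0.36, adjusted p = 0.873).

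Bnc1 encodes basonuclin 1, a zinc finger protein of epithelia and germ cells (chromosome 7, 81966657 to 81992299). It was at 10.3, 6.45, 17.8 and 28.1 CPM in inputs 1 to 4 and at 29.8, 19.7, 16.1 and 22.0 CPM in RIP libraries 1 to 4. Inputs 1 and 2 were the low libraries, and inputs 3 and 4 overlapped the RIP libraries. The log2 fold change was 0.48 ± 0.44 (interval -0.45 to 1.41, adjusted p = 0.827). Within libraries numbered 1 and 2 it was 1.55 (edgeR adjusted p = 0.510) and within those numbered 3 and 4 it was -0.27 (0.841), and this gap between the number pairs was not tested.

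**Figure D2:**
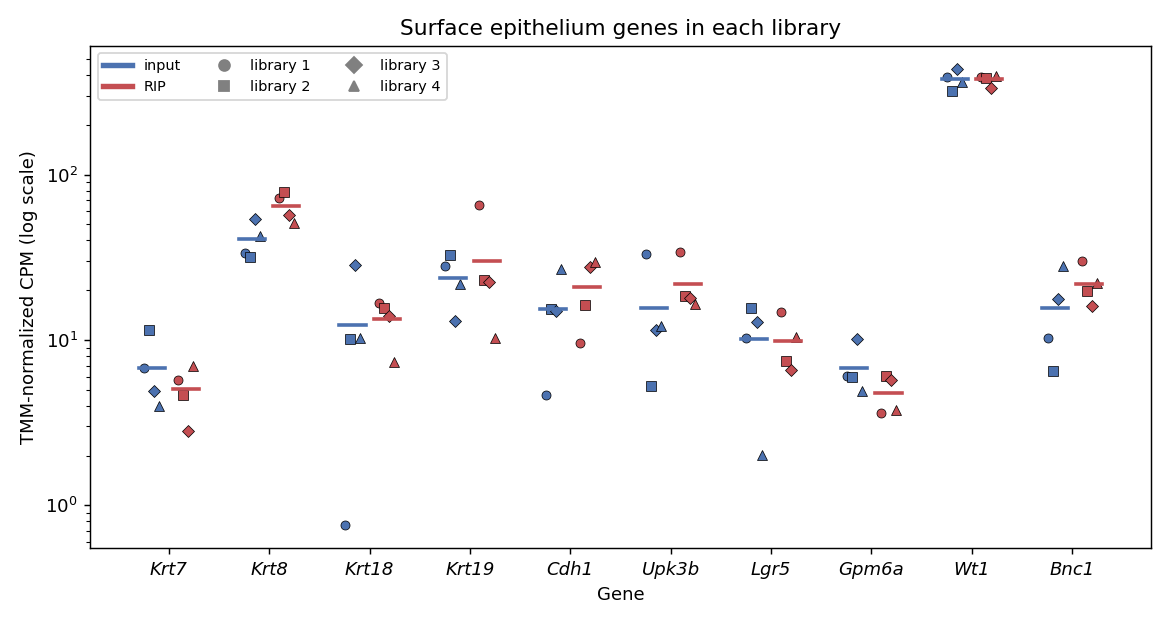
TMM-normalized CPM (y axis, log scale) of the 10 genes (x axis) in each input (blue) and RIP (red) library, with marker shape for the library number and a line at the mean of each group of 4. Wt1 lies between 322 and 436 CPM in all libraries, while Krt18 runs from 0.756 to 28.4 CPM among the inputs.

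As a set, 6 members had a log2 fold change above 0 and 4 below, with a median of 0.22 where the median of all 14667 genes tested was -0.02. Members called by edgeR at an adjusted p under 0.05 numbered 0 of 10, and over all genes the test called 0.0409%. At an unadjusted p under 0.05 it found 1 member, Krt8, where 7.43% of all genes had such a p in either direction, and DESeq2 (0.384% of all genes called) and limma voom with sample weights (0.0477%) each called 0 members after adjustment. The groups overlapped for all 10 members, while over all genes tested they did not overlap for 5.29%. The intervals show how far this reaches: for 7 members the interval included a 2-fold higher level in RIP and for 4 a 2-fold lower one, so the data leave differences of that size possible for them. Summed over the 10 members, the level was 524 ± 61 CPM in input and 568 ± 55 CPM in RIP. Wt1 held 70.3 to 74.4% of the members' counts in the inputs and 60.6 to 71.5% in the RIP libraries, so the sum mostly follows Wt1. Without Wt1 the sum was 147 ± 16 CPM in input and 192 ± 42 CPM in RIP, with RIP 1 the highest at 252 CPM.

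**Figure D3:**
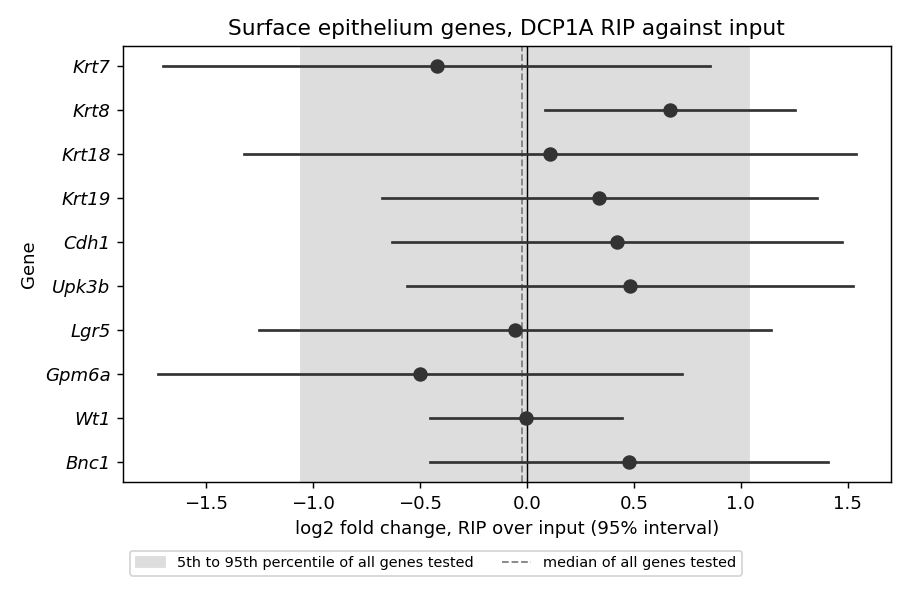
Log2 fold change of RIP over input (x axis) for each of the 10 genes (y axis), with 95% intervals as lines; the grey band spans the 5th to 95th percentile of all 14667 genes tested and the dashed line is their median of -0.02. All 10 points lie inside the band, and only the interval of Krt8 (0.09 to 1.25) leaves out 0.

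The members varied more among inputs than among RIP libraries. The SD of log2 CPM was wider among inputs for 9 of 10 members, with a median of 0.79 among inputs and 0.50 among RIP libraries. Over all genes tested it was wider among inputs for 72.6%, with medians of 0.64 and 0.44, so the members shared a pattern of the whole table. Across the 8 libraries the 45 pairs of members had a median correlation of log2 CPM of 0.017, from -0.59 for Krt7 with Bnc1 to 0.71 for Krt8 with Bnc1, and 24 of the 45 were above 0. These values are descriptions over 8 libraries that share tissue and preparation. A library that was high for one member was thus not regularly high for the others.

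The non-member genes whose log2 CPM most resembled the mean profile of the members over the 8 libraries, among 7331 genes at or above the median level, were Zfp263, Eif4e2, Cyb5r3, Idh3b and Cox4nb, with correlations of 0.917 to 0.940. For Krt18 alone they were Top3a, Vps33b, Ing1, Dis3l and Appl2, with correlations of 0.922 to 0.9504. None of these 10 names is on the lists of epithelial or cell type genes used here. They are the highest of 7331 correlations over 8 libraries and are given as a description.

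Related epithelial genes and the cell type lists below also held 0 calls each. The test called 0.0409% of all genes, so 0 calls in lists of this size says nothing particular about their genes. Among the other surface epithelium and mesothelial genes, 0 of 18 tested were called in either direction, 6 were above and 12 below 0, and the median was -0.19. The members with the lowest p were the fibrocystin-like gene Pkhd1l1 (13.5 ± 5.1 CPM in input, 8.33 ± 3.35 in RIP), the ephrin gene Efna5 (14.1 ± 1.9 and 9.36 ± 3.35) and the growth factor gene Fgf18 (3.64 ± 3.95 and 1.44 ± 0.37). In all 3 the input mean was the higher and the groups overlapped. The median of this list lay on the other side of 0 from that of the 10 members.

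Among other keratins and the proteins that anchor keratin filaments, 0 of 11 tested were called, and the median was -0.10. Plec, which encodes plectin, a linker of intermediate filaments to junctions, was at 887, 644, 479 and 1111 CPM in inputs 1 to 4 and at 1869, 1445, 1236 and 1038 CPM in RIP libraries 1 to 4. It was higher than all inputs in RIP libraries 1 to 3 but not in RIP 4, the same arrangement as for Krt8. The log2 fold change was 0.84 ± 0.29 (unadjusted p = 0.0104, edgeR adjusted p = 0.622). The plakin gene Ppl (log2 -1.04 ± 0.52) and the desmosomal plakophilin gene Pkp2 (-0.78 ± 0.40) lay in the other direction and did not pass.

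Of the junction and polarity genes, 27 were tested and 0 called, with 15 above and 12 below 0 and a median of 0.07. Cdh2, which encodes N-cadherin and is expressed in granulosa cells and surface cells, was at 138 ± 17 and 97.5 ± 27.5 CPM (-0.50 ± 0.26). The epithelial splicing regulator gene Esrp2 was at 8.90 ± 4.55 and 16.5 ± 9.4 CPM (0.89 ± 0.49). The cadherin pair Cdh1 and Cdh2 thus had fold changes of opposite sign, and neither passed.

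Of the genes around LGR receptors and R-spondins, 19 were tested and 0 called, with a median of 0.02. The WNT receptor gene Fzd1 had 26.6 ± 6.8 CPM in input against 45.1 ± 17.6 in RIP (log2 0.76 ± 0.33, unadjusted p = 0.0367), the secreted antagonist gene Sfrp1 at 86.9 ± 29.9 and 64.1 ± 13.5 CPM, and the co-receptor gene Lrp5 at 286 ± 86 and 374 ± 112 CPM. The ligand gene Rspo3 did not pass the filter, with 11 counts in input 3 and 0 in every other library. Among 8 genes of the epithelial to mesenchymal transition 0 were called, with a median of -0.17. The transcription factor gene Zeb2 of that list had 63.7 ± 24.7 CPM in input against 35.0 ± 9.7 in RIP (log2 -0.87 ± 0.32, unadjusted p = 0.0172), Fn1, which encodes fibronectin, at 150 ± 48 and 193 ± 14 CPM, and Snai2 at 12.3 ± 5.3 and 7.93 ± 3.90 CPM.

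Markers of the other cells of the cortex were set beside the members. The oocyte list (13 tested, median -0.07), the granulosa list (12, 0.04) and the stroma list (9, -0.07) had 0 calls each. Summed levels overlapped between the groups for each of them: 1851 to 2606 CPM in input and 1604 to 2218 in RIP for oocyte genes, 1204 to 2792 and 1541 to 2353 for granulosa genes, and 4399 to 6767 and 4452 to 8150 for stroma genes. In the RIP group, RIP 1 had the highest sum of granulosa and of stroma genes and the lowest of oocyte genes. The members did not share 1 order there. RIP 1 was the highest RIP library for Krt18, Krt19, Upk3b, Lgr5 and Bnc1 and the lowest for Cdh1 and Gpm6a. For Krt8 the highest was RIP 2, and for Krt7 and Wt1 it was RIP 4. The stroma genes Dcn (log2 -0.81 ± 0.29), Mgp (-0.72 ± 0.28) and Nr2f2 (-0.69 ± 0.27) and the granulosa gene Kitl (-0.63 ± 0.27) had unadjusted p-values of 0.0125, 0.0203, 0.0200 and 0.0323 and did not pass after adjustment. An unadjusted p under 0.05 with a lower level in RIP was found for 4.28% of all genes tested. Of the 9 stroma genes 4 lay above 0 and 5 below, and of the 12 granulosa genes 7 lay above and 5 below. Of the oocyte genes, those with the lowest p were Nlrp5 (log2 -0.46 ± 0.30), Ddx4 (-0.66 ± 0.45) and Zp1 (0.41 ± 0.29), and of the other granulosa genes Cyp19a1 (2.76 ± 1.499, from 0.247 ± 0.281 CPM in input) and Esr2 (0.31 ± 0.24). The part of these cell types in the levels of the members was not tested.

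Markers of further cell types were summed in the same way, and 0 were called in each list, where 0.0409% of all genes were called. Such sums depend on the genes chosen and do not measure how common a cell type was. Endothelial genes summed to 78.3 to 124 CPM in input and 85.6 to 120 in RIP (8 tested, median -0.06, 3 above 0 and 5 below). Those with the lowest p, Tek, Pecam1 and Emcn, were at log2 -0.51, -0.56 and -1.29, and Emcn was at 0 CPM in input 2 and RIP libraries 1 and 2. Smooth muscle and pericyte genes summed to 84.5 to 156 and 99.3 to 133 CPM (7 tested, median -0.33, 3 above 0 and 4 below). Those with the lowest p, Tagln, Acta2 and Rgs5, were at log2 -0.77, -0.33 and -0.61. Theca and steroid cell genes summed to 21.1 to 49.4 CPM in input and 33.7 to 61.5 in RIP (3 tested, median 0.83), with Star at 4.33 ± 3.33 and 7.70 ± 1.64 CPM, Cyp11a1 at 0.338 ± 0.232 and 1.14 ± 0.77, and Hsd3b1 at 30.4 ± 12.4 and 39.1 ± 8.7. Immune genes summed to 17.5 to 26.8 and 24.8 to 37.7 CPM (4 tested, median 0.69), and the macrophage receptor gene Csf1r was at 11.6 ± 3.4 and 20.8 ± 5.6 CPM (log2 0.84 ± 0.38, unadjusted p = 0.0434). Lyz2, the lysozyme gene of myeloid cells, lay the other way at 6.72 ± 4.71 and 2.42 ± 1.06 CPM (log2 -1.47 ± 0.77, unadjusted p = 0.0754). The macrophage gene Cd68 was at 0.737 ± 0.423 and 2.57 ± 0.84 CPM, with all RIP libraries above all inputs and an edgeR adjusted p of 0.740. Such a separation with RIP higher was found for 2.77% of all genes tested. The levels of Cd68 were low, with 0.420 and 0.340 CPM in inputs 1 and 2. Of the red blood cell genes only Alas2 was tested (33.3 ± 16.1 and 28.7 ± 10.7 CPM), and the globin gene Hba-a1 had 2 counts over all inputs and 3 over all RIP libraries.

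**Figure D4:**
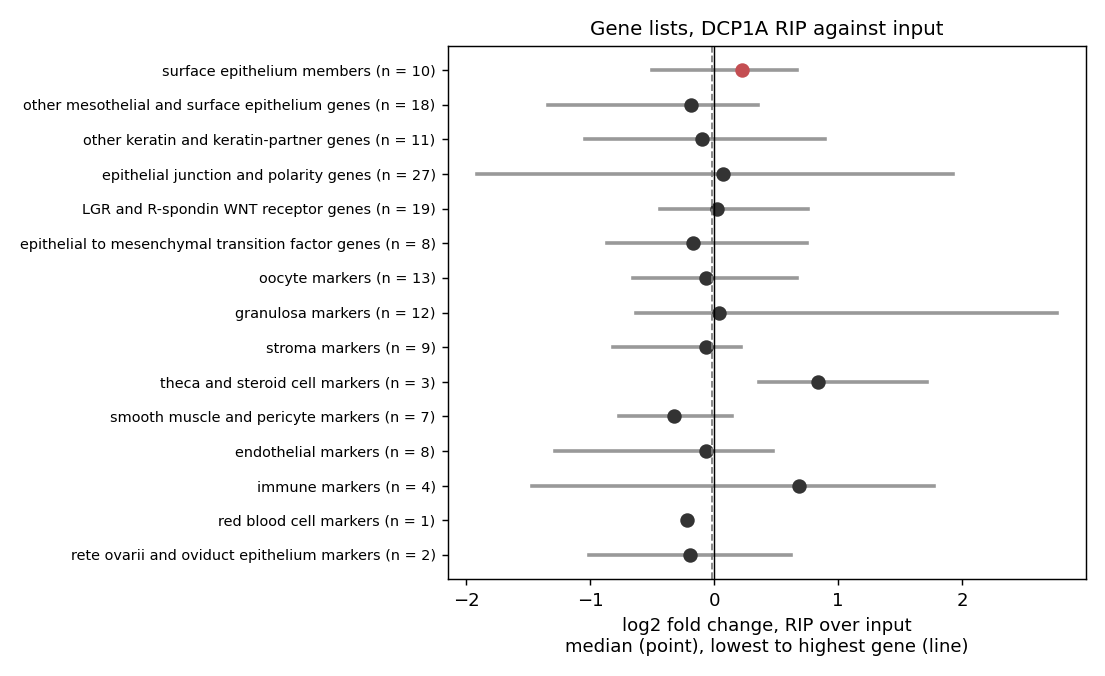
Median log2 fold change of RIP over input (points) and the lowest to highest gene (lines) on the x axis for each gene list (y axis, with the number of genes tested); the 10 surface epithelium genes are in red and the dashed line is the median of all genes. The 10 genes have a median of 0.22, and no gene of any list passed the adjusted test, which called 0.0409% of all genes.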

How the data were processed

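The deposited table held estimated counts (expected counts) by the authors for 23107 genes in 8 libraries. Values off a whole number by over 1e-09 made up 1.49 to 1.85% per library. A Magna RIP kit and a SMARTer Stranded total RNA kit were used, per the labels' protocols. The build is mm10, per the submitters' processing notes. Aligner, counter and use of strand are not stated in the sources used here. The design assumed whole counts, so the values were rounded and the same test kept.

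RIP and input were compared in R 4.3.3 with edgeR 4.0.16 (TMM factors, filterByExpr with minimum count 10 and minimum total 15, robust quasi-likelihood fit, Benjamini-Hochberg adjustment, threshold 0.05), which left 14667 genes. Fold changes are log2 values of RIP over input. Standard errors were taken from the fold change and the F statistic (its absolute value over the root of F), and 95% intervals use the test's degrees of freedom. Other cells' gene lists were described by counts and medians. Alternatives were other scalings, DESeq2 1.42.0, limma 3.58.1 voom with sample weights, other filters, blocks by library number, and leaving out each library. The test was tested on simulated data. In other lists the 3 genes with the lowest p were named, or all of them where fewer were tested. One gene that this rule names is not reported here. Wt1os, Krt5, Krt14, the globin genes and other genes given by their counts lay outside that rule and were picked once their values had been seen. The genes and lists were chosen with earlier results of these data known. Positions and symbols came from the RefSeq gene table of GRCm38.p6, where 20546 symbols matched directly.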

Additional observations from a re-analysis of the deposited data

Results flagged for a closer look

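Upk3b in RIP 1, at 33.9 CPM, lay far above the other RIP libraries at 16.5 to 18.4 CPM: its gap to the next library exceeded Dixon's 95% critical value. Input 1, at 33.3 CPM, was likewise the highest input. Of 20 groups of 4 examined for the 10 genes, 1 was singled out, and chance flags about 1 in 20.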

How the results depend on the processing

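No member was called under the 4 other scalings, DESeq2, limma voom with sample weights, both other filters, both blocks, the fits within number pairs or the 8 fits without 1 library. Each of these settings called only 0.022% (no low-count filter) to 0.384% (DESeq2) of all genes tested. The lack of calls in so small a set therefore says nothing particular about the members. Over the 200 fold changes of the members in these settings the lowest adjusted p was 0.227. This value was edgeR's for Krt8 with numbers 1 and 2 against 3 and 4 as a block. Krt8, Upk3b, Cdh1 and Gpm6a kept their sign in all 20 alternatives each, and 177 of the 200 values kept theirs. Without 1 library, Krt8 was at 0.57 to 0.84, Upk3b at 0.18 to 1.16 (the latter without input 1), Cdh1 at 0.12 to 0.84, Gpm6a at -0.63 to -0.22, Bnc1 at 0.22 to 0.92 and Krt7 at -0.62 to -0.038.

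Signs changed as follows, none past the threshold. Wt1 was at 0.031 with upper quartile scaling, 0.0037 without a low-count filter, 0.0021 with the replicate block and 0.12 within numbers 1 and 2, and from -0.072 to 0.081 without 1 library. Krt18 was at -0.034 with library size only and -0.86 within numbers 3 and 4, and from -0.28 to 0.93 without 1 library. Krt19 was at -0.11 by limma voom and -0.10 within numbers 3 and 4, and from -0.36 to 0.63 without 1 library. Lgr5 was at 0.50 by limma voom, 0.15 with the replicate block and 0.19 within numbers 3 and 4, and from -0.40 to 0.22 without 1 library. Within numbers 3 and 4, Bnc1 was at -0.27 and Krt7 at 0.14. The cause of these sign changes was not tested.

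The summed level of the members was 0.12 higher in RIP on the log2 scale, 0.08 to 0.15 with other scalings and 0.06 to 0.20 without 1 library. Same-numbered libraries deviated together with correlations of 0.162, 0.0915, 0.178 and 0.118 over all genes. Inputs 2, 3 and 4 matched another RIP library better than their own number. Each of these better matches lay within numbers 1 and 2 or within numbers 3 and 4. Every correlation between these number groups was negative, from -0.252 to -0.0425. The mean of each group was first subtracted for every gene, so positive values within the number groups bring negative ones between them. The negative values are therefore not separate evidence of such groups. Since not every same-numbered correlation was over 0.1, the numbers were not treated as pairs, and the main fit has no block. With the replicate block 0 members and 55 of 14667 genes were called, against 6 without it. The block of numbers 1 and 2 against 3 and 4 also called 0 members and 55 genes. The spread between libraries, and for Krt18 in input 1 a count of 9, limits what could be detected.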
